A study of Homo sapiens with 4 samples.

Results

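The cytosolic ribosomal protein genes were taken as the symbols that begin with RPL or RPS and go on with a number and at most one of the letters A, X or L, together with RPLP0, RPLP1, RPLP2 and RPSA. This rule uses names only, and it found 81 genes (49 of the large 60S subunit and 32 of the small 40S subunit) among 27940 symbols. The RNA came from U87, an established human glioma cell line grown in DMEM with serum, in 4 libraries. The 2 control libraries, shNC, are from cells infected with lentivirus made from the empty FUGW-H1 vector, which the series' design text calls H1-RFP (WT). The 2 shPTPRN3 libraries are from cells infected with lentivirus with a hairpin, 1 sequence only, that targets PTPRN, a protein of the tyrosine phosphatase family in the membrane of secretory vesicles. Both groups therefore carry a lentivirus, and no second hairpin and no uninfected cells are included. The design text calls the libraries biological replicates without saying whether the cultures were separate, so a p-value here measures the spread between libraries, which may be technical. The question was how the transcripts of the ribosome differ when the hairpin is present, and how large that difference is beside the difference between replicates of one group.

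A eukaryotic ribosome is built from a small subunit that reads the mRNA and a large subunit that joins amino acids, each with its own set of ribosomal proteins around ribosomal RNA. Growing cells make these proteins in nearly equal numbers, from short and very abundant mRNAs that take a large part of all mRNA. Most of these mRNAs begin with a C followed by an unbroken run of C and T, the 5′ terminal oligopyrimidine (TOP) tract, through which the growth-controlling kinase mTOR and the proteins of the LARP family regulate their translation and stability.

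The starts of the genes are shown first because this tract was found in most of the members that could be searched. Each line gives 15 bases before and 15 bases from the annotated start of the transcript, 5′ to 3′ on the strand of the gene, from RefSeq (GRCh38.p14), with the tract in capitals where one begins at the start. RPS27 and RPS12 were among the most abundant members, RPLP0 carries the stalk, RPL12 and RPL26 were among the members with the largest difference between groups, and RPS24 was among those with the smallest. RPS4X and RPS27L have no tract at the annotated start.
RPS27 (chr1:153990747-153990776, plus strand): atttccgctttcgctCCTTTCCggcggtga
RPS12 (chr6:132814554-132814583, plus strand): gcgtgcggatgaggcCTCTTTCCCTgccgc
RPLP0 (chr12:120201097-120201126, minus strand): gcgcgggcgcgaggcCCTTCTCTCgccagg
RPL12 (chr9:127451392-127451421, minus strand): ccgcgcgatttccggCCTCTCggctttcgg
RPL26 (chr17:8383179-8383208, minus strand): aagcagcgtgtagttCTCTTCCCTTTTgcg
RPS24 (chr10:78033848-78033877, plus strand): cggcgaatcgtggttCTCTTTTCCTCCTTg
RPS4X (chrX:72277234-72277263, minus strand): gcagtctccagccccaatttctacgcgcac
RPS27L (chr15:63157463-63157492, minus strand): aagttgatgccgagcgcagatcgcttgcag
A tract was counted when the annotated start was a C followed by at least 4 further C or T, on the strand of the gene only. Of the 81 members, 64 had a window in the RefSeq table, and 46 of these (71.9%) held the tract, against 5.14% of 27305 symbols with a window. When the tract could begin up to 10 bases to either side of the annotated start, 57 members (89.1%) and 38.4% of symbols held one. These matches describe the letters at an annotated start, not the start used in these cells.

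The libraries were first checked as a whole. Depth was estimated roughly from the widths of the deposited intervals. It was 21.8 and 14.0 M fragments in shNC replicates 1 and 2, and 35.4 and 15.0 M fragments in shPTPRN3 replicates 1 and 2. Replicate 1 was therefore the deeper library in both groups, and the part of depth in the results was not tested. PTPRN (chr2:219289623-219309401, hg38) had 28.6 and 19.3 FPKM in shNC and 5.22 and 3.42 FPKM in shPTPRN3, so 18.1% of its scaled level was left (log2 difference -2.22, SE 0.34, limma adjusted p = 0.0592). FPKM are fragment numbers normalised to transcript length and to the depth of the library, and scaled FPKM are FPKM divided by a factor per library, so that the typical gene is level across libraries. Of 11 glioma and mesenchymal markers, 6 (VIM, CD44, S100A6, CHI3L1, SPARC and TNC) had at least 23.0 FPKM in every library. NES lay between 0.917 and 3.91 FPKM, S100B, OLIG2 and SOX2 did not exceed 0.918 FPKM, and GFAP, the filament of astrocytes, was listed at 0 in all 4. SPARC moved with the groups, at 39.2 and 33.5 FPKM in shNC and 241 and 160 FPKM in shPTPRN3. The groups also separated for TNC, at 23.0 and 58.7 FPKM in shNC and 77.7 and 61.1 FPKM in shPTPRN3. For NES they separated with shPTPRN3 lower, at 2.44 and 3.91 FPKM in shNC and 1.37 and 0.917 FPKM in shPTPRN3. The part of these markers in the results was not tested. Of the markers of other cells, no blood marker exceeded 0.282, no epithelial marker 0.752 and no endothelial marker 0.717 FPKM. Of the neuronal markers, SNAP25, a synaptic gene, was at 7.42 and 5.80 FPKM in shNC and at 30.0 and 9.58 FPKM in shPTPRN3, so its groups separated too. MAP2 reached 4.36 FPKM in shNC replicate 2, while SYN1 was listed at 0 throughout.

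Ribosomal protein transcripts were lower in the shPTPRN3 libraries than in the shNC library of the same replicate number for most members. No member passed the main test, which had no block for the replicate number. Over the 79 members tested, the median log2 difference, taken on log2(scaled FPKM + 1) throughout, was -0.53, a 1.44-fold lower level, beside -0.01 over all 11390 genes tested. The difference was negative for 78 of 79 members, and for 76 with quantile normalization, which turned RPS24 and RPLP0 positive. Both values moved when a single library was left out. Without shNC replicate 1 the median was -0.02, with 40 members negative and 39 positive. Without shPTPRN3 replicate 2 it was -0.18, with 60 negative and 19 positive. Without shNC replicate 2 it was -1.12, and without shPTPRN3 replicate 1 it was -0.93, with all 79 members negative in each case. In every member replicate 1 was above replicate 2, so leaving out 1 library also unbalances the replicate numbers between the groups. By limma with Benjamini-Hochberg adjustment, 0 members were called at an adjusted p under 0.05, against 48 of all genes (0.421%), and 1 member, RPL39L, had an unadjusted p under 0.05, against 13.4% of all genes. The smallest adjusted p of a member was 0.337. With a block for the replicate number, 11 of 79 members were called, against 19.0% of all genes, a share that the members did not exceed. In bulk RNA, a lower level in every cell and a change in the mixture of cells cannot be told apart.

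The difference between replicates was larger than this difference between groups, though no longer so once trends with length and GC content were removed (0.41 and 0.38 between replicates, -0.43 between groups). In every one of the 79 members the first replicate was above the second, in shNC and in shPTPRN3 alike. The median log2 difference of replicate 1 over replicate 2 was 1.08 in shNC (2.12-fold) and 0.79 in shPTPRN3 (1.73-fold), beside 0.00 and 0.02 over all genes. In shNC 48 members were at least 2-fold higher in replicate 1 than in replicate 2, against 7.16% of all genes. In shPTPRN3 10 members were, against 6.09% of all genes. Among these 10 were RPL36, RPL39, RPS12, RPS28, RPS29 and RPSA, and all 10 were also among the 48. For 11 of 79 members the difference between the groups exceeded the mean of the 2 replicate differences. These are the members in which both shNC libraries were above both shPTPRN3 libraries, which held for 23.1% of all genes. Because replicate 1 was the higher in every member, both counts describe the same fact.

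Within one replicate number, the comparison of hairpin and control gave a lower level in shPTPRN3 for nearly all members. In the libraries numbered 1 all 79 members were lower, with a median log2 difference of -0.74 (1.67-fold lower). In the libraries numbered 2, 73 of 79 were lower, with a median of -0.39 (1.31-fold lower). The 73 members that were lower within both numbers compare with 35.6% of all genes. The labels do not say that a number marks a shared culture or day, so these within-number values are given as a description.

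The order of the 4 libraries was nearly the same from member to member. All 79 members were highest in shNC replicate 1, and 73 were lowest in shPTPRN3 replicate 2. The order shNC replicate 1, shPTPRN3 replicate 1, shNC replicate 2, shPTPRN3 replicate 2 held for 62 members. In 11 members both shNC libraries were above both shPTPRN3 libraries, against 23.1% of all genes, a share that the members (11 of 79) did not exceed. With length and GC trends removed the count was 45 of 79, against 26.9% of all genes. In no member were both shPTPRN3 libraries above both shNC libraries, against 21.5% of all genes. The other 6 members, all of the small subunit and among them RPS21, RPS24, RPS27L and RPS28, were lowest in shNC replicate 2.

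**Figure D1:**
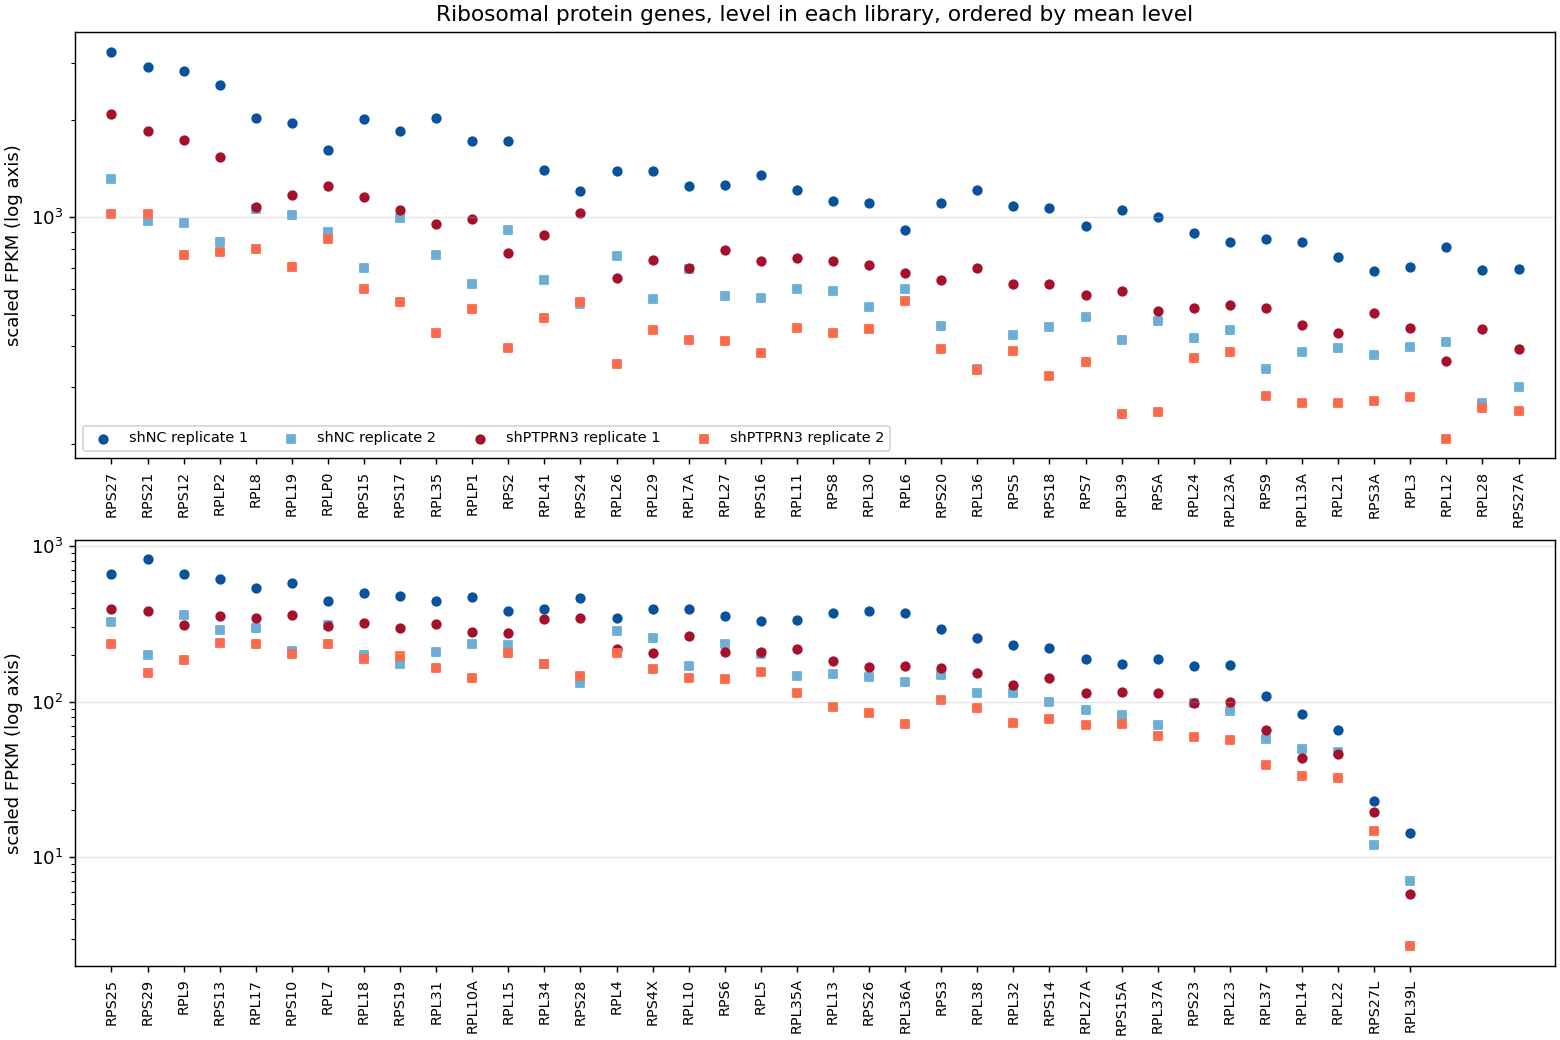
Scaled FPKM (log axis) of 77 of the 79 tested ribosomal protein genes, ordered by mean level, with a point for each of the 4 libraries (blue shNC, red shPTPRN3, circles replicate 1, squares replicate 2). The dark blue circle of shNC replicate 1 is the highest point of every gene shown, and the light red square of shPTPRN3 replicate 2 is the lowest in 72.

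Summed over the family, ribosomal protein genes took 15.4% and 9.86% of all FPKM in the 2 shNC libraries, and 10.8% and 7.17% in the 2 shPTPRN3 libraries. The groups overlapped, because shPTPRN3 replicate 1 lay above shNC replicate 2. The means were 12.6% ± 3.89 and 8.97% ± 2.55 (SD, n = 2 each; exact permutation test, two-sided, p = 0.667, where the smallest p that 2 against 2 libraries can give is 0.333). The share in shPTPRN3 was 70.1% of that in shNC among the libraries numbered 1 and 72.7% among those numbered 2. Of the 100 symbols with the highest scaled FPKM, 45 and 37 were members in the 2 shNC libraries, and 35 and 24 in the 2 shPTPRN3 libraries.

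**Figure D2:**
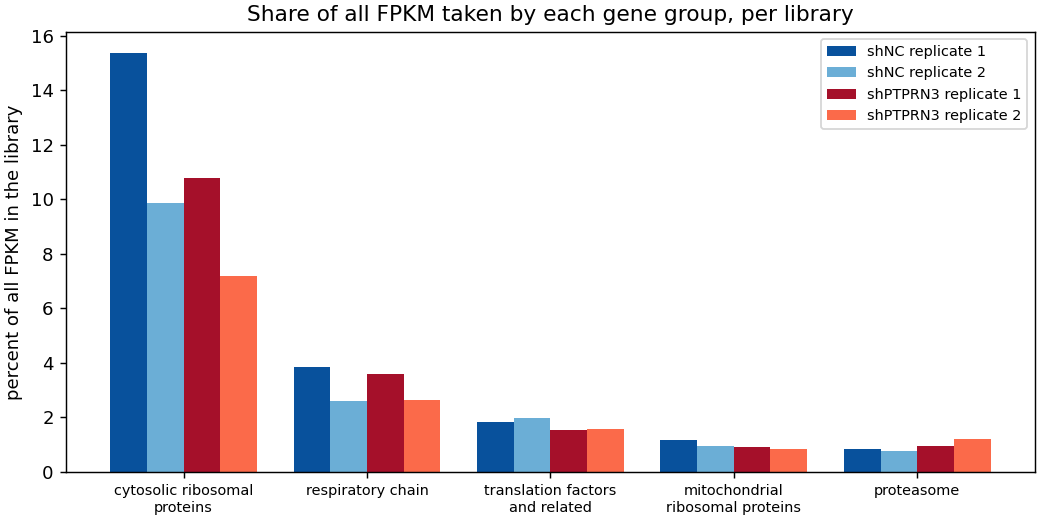
Percent of all FPKM taken by the tested genes of 5 groups in each library (bars from 0, one bar per library). The cytosolic ribosomal proteins take 7.17% to 15.4% and are highest in shNC replicate 1, and the groups of bars for shNC and shPTPRN3 overlap.

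Levels spanned a wide range between members. The mean scaled FPKM over the 4 libraries ran from 7.50 for RPL39L to 1914 for RPS27, with a median of 447. It was at least 100 in 74 of the 79 tested members and at least 1000 in 10. RPS27, RPS21, RPS12, RPLP2 and RPL8 had the highest levels. RPL39L, RPS27L, RPL22, RPL14 and RPL37 had the lowest. Comparisons of level between members are coarse here, because the deposited FPKM of many members, short and long, lies above its own deposited interval. Among the 73 tested members with a single row, this held for 26 members in every library, and the FPKM of RPS29 was 2.34 to 2.58 times the middle of its interval. The ratio differed little between libraries, by a factor of 1.01 at the median member and at most 1.13 (RPL39L), and with interval midpoints in place of FPKM the median difference between groups was again -0.53.

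Of the small subunit, RPS2 (chr16:1962058-1964826), a protein at the entrance of the mRNA channel, had the most negative difference between groups of the family on this scale. RPL39L was more negative with a pseudocount of 0.5 (-1.25, against -1.18 for RPS2) or 0.1, on TPM, with quantile normalization and without shPTPRN3 replicate 2. RPS2 was at 1786 and 892 FPKM in shNC and at 818 and 374 FPKM in shPTPRN3. The higher shPTPRN3 value was still under the lower shNC value. The scaled means were 1319 ± 569 and 587 ± 270 (SD, n = 2), a log2 difference of -1.18 (SE 0.64, limma adjusted p = 0.462). The difference was nearly equal within the libraries numbered 1 (-1.14) and numbered 2 (-1.21).

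RPS6 (chr9:19375716-19380236), the ribosomal protein phosphorylated by S6 kinase downstream of mTOR, was at 369 and 228 FPKM in shNC and at 220 and 132 FPKM in shPTPRN3. Its groups did not overlap either, though shPTPRN3 replicate 1 lay just under shNC replicate 2. The log2 difference was -0.75 (SE 0.46, adjusted p = 0.519). RPS4X, the X-linked gene of a small subunit protein, had 409 and 250 FPKM against 216 and 153 FPKM, with a log2 difference of -0.80 (adjusted p = 0.479).

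RPSA (chr3:39406720-39412541), also known as the laminin receptor, was at 1039 and 465 FPKM in shNC and at 542 and 236 FPKM in shPTPRN3. Here shPTPRN3 replicate 1 exceeded shNC replicate 2, so the groups overlapped (log2 difference -0.94, SE 0.62, adjusted p = 0.546). RPS26, a protein near the mRNA exit, showed the same order, with 399 and 140 FPKM against 177 and 79.0 FPKM. Its log2 difference was -0.98 (adjusted p = 0.515). RPS27A, which is made as a fusion with ubiquitin, had 721 and 291 FPKM in shNC and 414 and 239 FPKM in shPTPRN3, with a log2 difference of -0.53 (adjusted p = 0.749).

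The 3 most abundant members, RPS27, RPS21 and RPS12, belong to the small subunit as well. RPS27, a zinc-binding protein, had 3361 and 1277 FPKM in shNC and 2189 and 962 FPKM in shPTPRN3. RPS12 had 2919 and 933 FPKM in shNC and 1816 and 722 FPKM in shPTPRN3. In both genes the 2 libraries numbered 1 were above the 2 libraries numbered 2. The log2 differences between groups were -0.50 and -0.51 (adjusted p = 0.830 and 0.831), while the log2 difference between the shNC replicates was 1.30 for RPS27 and 1.55 for RPS12.

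The small subunit genes that were lowest in shNC replicate 2 had differences near 0. RPS24 was at 1251 and 527 FPKM in shNC and at 1081 and 517 FPKM in shPTPRN3, with a log2 difference of -0.10 (SE 0.65, adjusted p = 0.970), or 0.12 with quantile normalization. RPS28 was at 479 and 128 FPKM in shNC and at 360 and 137 FPKM in shPTPRN3, and its difference was -0.43 between the libraries numbered 1 and 0.14 between the others. RPS21 differed by -0.30 on the log2 scale (adjusted p = 0.915). RPS19, a gene mutated in Diamond-Blackfan anaemia, differed by -0.26 (adjusted p = 0.903).

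RPS27L, a paralogue of RPS27 and a known target gene of the tumour suppressor p53, was the single member with a positive difference, which turned to -0.062 with length and GC trends removed. It had 23.8 and 11.6 FPKM in shNC and 20.6 and 13.9 FPKM in shPTPRN3. Its scaled means were 17.4 ± 7.78 and 17.2 ± 3.38 (SD, n = 2), and its log2 difference, taken between means of log values, was 0.04 (SE 0.40, adjusted p = 0.982), so the sign depended on whether values were averaged before or after the log. The 2 shPTPRN3 values lay between the 2 shNC values.

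Of the large subunit, all 47 tested members had a negative difference, with a median of -0.55, beside a median of -0.52 over the 32 of the small subunit. RPL26 (chr17:8377516-8383193), which lies near the exit of the peptide tunnel, was at 1436 and 739 FPKM in shNC and at 685 and 331 FPKM in shPTPRN3. RPL12 (chr9:127447674-127451406), at the base of the stalk, was at 839 and 402 FPKM against 379 and 195 FPKM. RPL9 (chr4:39454125-39458948), also near the stalk base, was at 683 and 352 FPKM against 328 and 173 FPKM. In these 3 genes shPTPRN3 replicate 1 fell just under shNC replicate 2, so the groups did not overlap. Their log2 differences were -1.10 (SE 0.61), -1.08 (SE 0.56) and -1.03 (SE 0.54), and their adjusted p values 0.471, 0.452 and 0.452.

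The remaining large subunit members without overlap had smaller differences or lower levels. RPL4, one of the longest members, was at 360 and 278 FPKM in shNC and at 229 and 194 FPKM in shPTPRN3. Its replicates were the closest of the family, with log2 differences of 0.28 in shNC and 0.08 in shPTPRN3, and its difference between groups was -0.57 (SE 0.43, adjusted p = 0.608). RPL14 had 86.0 and 48.7 FPKM against 46.0 and 31.5 FPKM, a log2 difference of -0.74 (adjusted p = 0.461). RPL22, an RNA-binding protein on the outside of the subunit, had 68.2 and 46.1 FPKM against 48.8 and 30.4 FPKM, and RPL7 had 461 and 302 FPKM against 322 and 221 FPKM. Their log2 differences were -0.52 (adjusted p = 0.597) and -0.47 (adjusted p = 0.722).

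The stalk proteins, which recruit translation factors, differed less than the family median or close to it. RPLP0, which anchors the stalk, was at 1669 and 878 FPKM in shNC and at 1318 and 809 FPKM in shPTPRN3. RPLP1 was at 1777 and 605 FPKM against 1038 and 492 FPKM. RPLP2 was at 2661 and 815 FPKM against 1614 and 737 FPKM. In all 3 genes shPTPRN3 replicate 1 lay above shNC replicate 2. The log2 differences were -0.22, -0.52 and -0.42, with adjusted p values of 0.923, 0.801 and 0.866. RPLP0 is often used as a reference gene, and its log2 difference between the shNC replicates was 0.83.

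RPL5 and RPL11, which bind 5S ribosomal RNA and restrain MDM2 when ribosome assembly is disturbed, kept the family's pattern. RPL5 had 341 and 198 FPKM in shNC and 219 and 147 FPKM in shPTPRN3. RPL11 had 1259 and 585 FPKM in shNC and 785 and 430 FPKM in shPTPRN3. In each, the libraries lay in the order that 62 members shared, and the log2 differences were -0.52 and -0.55 (adjusted p = 0.682 and 0.751). RPL13A, which also silences inflammatory mRNAs when released from the ribosome, differed by -0.69 (SE 0.59, adjusted p = 0.670).

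Among the other large subunit members with a low value in shPTPRN3, RPL36A had 386 and 131 FPKM against 179 and 67.2 FPKM. Its groups overlapped. Its log2 difference was -1.01 (adjusted p = 0.530), with a log2 difference between the shNC replicates of 1.46.

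The paralogues form a small group of their own. RPL39L, the testis-enriched paralogue of the tunnel protein RPL39, was at 15.0 and 6.88 FPKM in shNC and at 6.12 and 2.52 FPKM in shPTPRN3. Its groups did not overlap, and its log2 difference of -1.16 (SE 0.46) had the smallest adjusted p of the family (0.337). RPL39 itself was at 1095 and 408 FPKM in shNC and at 623 and 233 FPKM in shPTPRN3, with a log2 difference of -0.80 (adjusted p = 0.668) and overlapping groups. RPL3L, the muscle paralogue of RPL3, had at most 0.125 FPKM in any library. RPL10L, a testis paralogue of RPL10, had 0.404 FPKM in shNC replicate 1 and was listed at 0 in the other 3 libraries. These last 2 members did not reach a mean of 1 scaled FPKM and were not tested. Ribosomal protein genes have many processed pseudogenes, and fragments that match a gene and its copy can have been split between them, so single members carry that uncertainty.

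The differences of the members were related to each other across library pairs. Over the 79 members, the difference between shPTPRN3 and shNC in the libraries numbered 1 followed that in the libraries numbered 2 (Pearson r = 0.74, Spearman rho = 0.66). The replicate difference in shNC likewise followed that in shPTPRN3 (r = 0.74, rho = 0.67). Members share libraries and sequence composition and are not independent, so these are descriptions. Relative to the family's own median, 28 members were on the lower side within both numbers and 27 on the higher side within both.

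**Figure D3:**
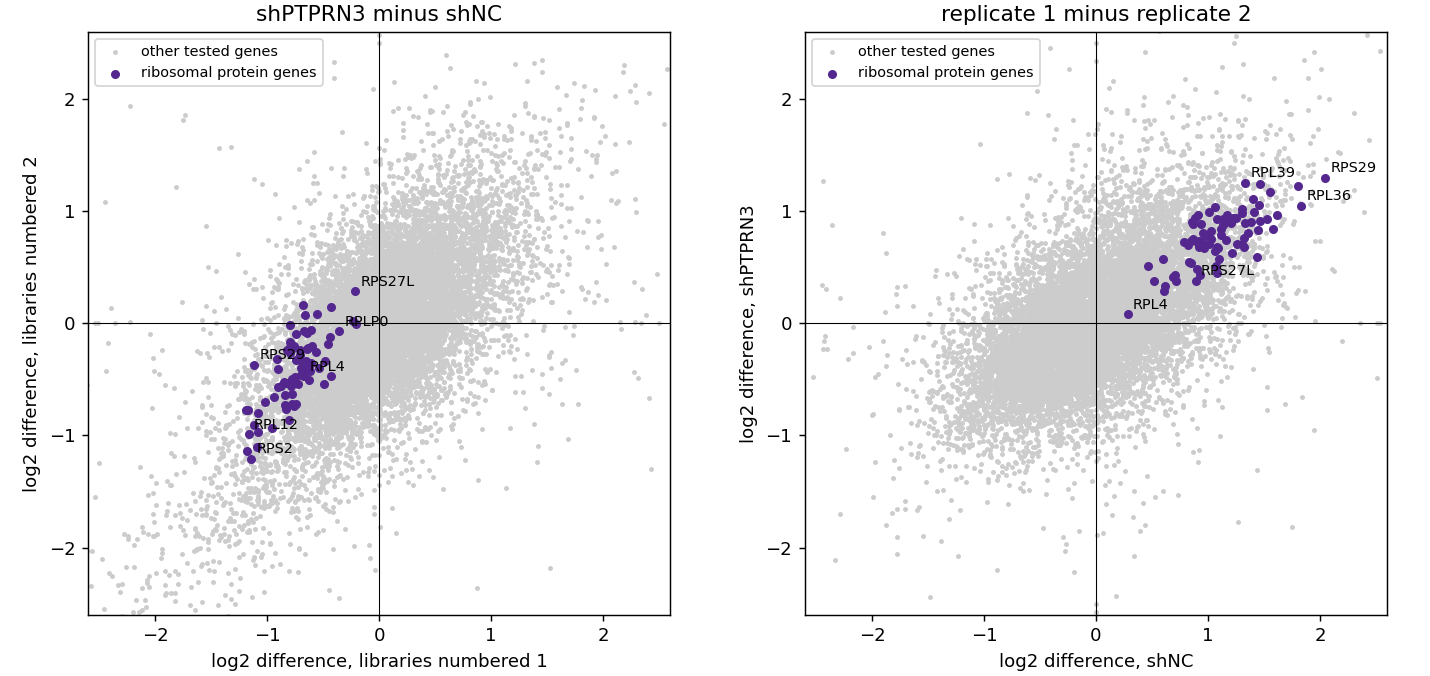
Log2 differences between pairs of libraries for the tested genes (grey) and the 79 ribosomal protein genes (purple), for shPTPRN3 minus shNC in the libraries numbered 1 and numbered 2 (left) and for replicate 1 minus replicate 2 in shNC and shPTPRN3 (right); genes beyond 2.6 in either direction are outside the axes. The ribosomal protein genes lie in the lower left on the left side and wholly in the upper right on the right side, with RPS27L at the upper edge on the left and RPL4 nearest 0 on the right.

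Coding length ran from 75 bases for RPL41 to 1281 bases for RPL4, with a median of 453 bases, in GENCODE 29. The replicate difference was larger in shorter members, with r = -0.53 between log10 coding length and the log2 difference of the shNC replicates and r = -0.48 in shPTPRN3 (n = 79 members). In the 27 members under 400 bases the median replicate difference was 1.26 in shNC and 0.92 in shPTPRN3. In the 30 members of 400 to under 600 bases it was 1.09 and 0.76, and in the 22 of at least 600 bases it was 0.85 and 0.68. Short genes outside the family differed between replicates in the same direction. Among other genes with a mean of at least 50 scaled FPKM, the corresponding medians were 1.09 and 0.63 (184 genes under 400 bases), 0.92 and 0.52 (193 genes) and 0.35 and 0.11 (683 genes of at least 600 bases).

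Examples at both ends show the size of this relation. RPS29, a zinc-binding protein with a coding length of 168 bases, was at 855 and 193 FPKM in shNC and at 400 and 145 FPKM in shPTPRN3. The shNC replicates differed 4.14-fold and the shPTPRN3 replicates 2.46-fold. The deposited row of RPS29 overlaps RN7SL1, the RNA of the signal recognition particle, and the part of that overlap in the value was not tested. RPL36 (315 bases), whose row overlaps LONP1, was at 1260 and 331 FPKM in shNC and at 736 and 318 FPKM in shPTPRN3, a 3.57-fold and a 2.07-fold replicate difference. RPL4, at the other end, differed 1.22-fold and 1.06-fold between replicates.

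The difference between groups showed little relation to length within the family. Its correlation with log10 coding length was r = 0.04 in the libraries numbered 1 and r = -0.14 in those numbered 2 (n = 79). The corresponding Spearman rho was -0.007 and -0.20. The median group difference was -0.51 in the members under 400 bases, -0.56 in those of 400 to under 600 bases and -0.61 in those of at least 600 bases. In the other genes with a mean of at least 50 scaled FPKM the medians of the same 3 length classes were -0.04, -0.06 and 0.13. Within the libraries numbered 1 these medians were -0.27, -0.26 and -0.01, and within those numbered 2 they were 0.15, 0.20 and 0.23. Over these other genes the correlation with log10 coding length was r = 0.32 in the libraries numbered 1 and r = 0.09 in those numbered 2 (n = 1060).

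**Figure D4:**
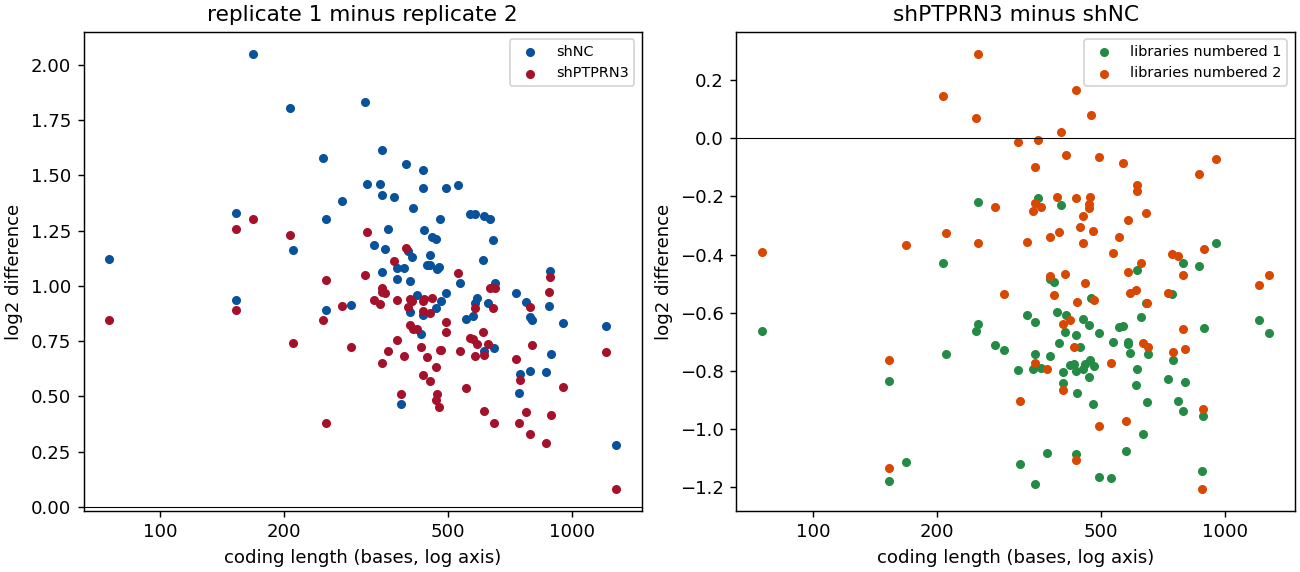
Log2 difference against coding length (bases, log axis) for the 79 tested ribosomal protein genes, for replicate 1 minus replicate 2 in each group (left) and for shPTPRN3 minus shNC in the libraries of each number (right). On the left the points fall towards the longer genes (r = -0.53 in shNC and -0.48 in shPTPRN3), and on the right they show no clear slope (r = 0.04 and -0.14).

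Trends with transcript length and GC content were then removed from each library across all genes. The median replicate difference of the members was then 0.41 in shNC and 0.38 in shPTPRN3, while the median difference between groups was -0.43 (-0.49 in the libraries numbered 1 and -0.40 in those numbered 2). With the trends removed, the groups separated, with shPTPRN3 lower, in 45 of the 79 members, against 26.9% of all genes. Of the 79 members, 15 had an unadjusted p under 0.05, against 22.3% of all genes, a share the members did not exceed. By limma 0 members were called, against 1.53% of all genes, with a smallest adjusted p of 0.0928 (RPS2).

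Members were also set side by side by the tract at the annotated start. The 46 members with the tract had a median group difference of -0.52 (SD 0.23 over members) and the 17 tested members with a window but no tract -0.57 (SD 0.28), and this difference was not tested. RPL26 and RPS24, whose long tracts are printed above, stood near opposite ends of the family at -1.10 and -0.10. Of the members without a tract, RPS4X had -0.80 and RPS27L 0.04.

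Other genes of protein synthesis gave the context. The 11 long noncoding RNAs that host small nucleolar RNAs, many of which carry TOP tracts, all had negative differences, with a median of -1.01. Their replicate medians were 1.27 in shNC and 0.70 in shPTPRN3. Of the 11, 0 were called, against 0.421% of all genes, and 3 had an unadjusted p under 0.05, against 13.4%. In 5 of the 11 the groups separated with shPTPRN3 lower, against 23.1% of all genes. SNHG12 among them had 30.0 and 5.81 FPKM in shNC and 6.57 and 0 FPKM in shPTPRN3, with wide gaps between the replicates of each group (log2 difference -2.42, SE 1.00, adjusted p = 0.363). In 25 translation factors and related proteins with TOP mRNAs the median was -0.31, and 19 differences were negative. Of the 25, 1 had an unadjusted p under 0.05, against 13.4% of all genes, and 0 were called, against 0.421%. In 10 of the 25 the groups separated with shPTPRN3 lower, against 23.1% of all genes, and in 2 with shPTPRN3 higher, against 21.5%. EIF3L, a subunit of initiation factor eIF3, had the most negative value, with 33.4 and 30.7 FPKM against 18.4 and 14.3 FPKM (log2 difference -0.93, SE 0.31, adjusted p = 0.269). The median replicate difference of these 25 genes was smaller, at 0.23 in shNC and 0.14 in shPTPRN3. Single genes differed in both directions, from -1.01 to 1.60 in shNC and from -0.68 to 0.85 in shPTPRN3.

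The 55 tested genes of ribosome biogenesis, which make and assemble the subunits, had a median group difference of -0.57. The median of their replicate differences was 0.10 in shNC and 0.03 in shPTPRN3. Single genes differed in both directions, from -0.90 to 1.32 in shNC and from -1.02 to 1.21 in shPTPRN3. In 33 of the 55 the groups separated with shPTPRN3 lower, against 23.1% of all genes, and 9 had an unadjusted p under 0.05, against 13.4%. Of the 55, 1 was called by limma, against 0.421% of all genes. This was POLR1B, a core subunit of RNA polymerase I, with 4.06 and 3.90 FPKM in shNC and listed at 0 in both shPTPRN3 libraries (adjusted p = 0.0334). The call was lost with a pseudocount of 0.1 (adjusted p = 0.0839), with no filter on low values (0.142) and without the eBayes trend (0.0516). Of 21 tested regulators of ribosomal protein synthesis, 0 were called, against 0.421% of all genes. An unadjusted p under 0.05 was found for 1 of the 21, against 13.4% of all genes, and the median was -0.07. MYC, a transcription factor that drives ribosome production, had 30.5 and 26.7 FPKM in shNC and 18.6 and 13.1 FPKM in shPTPRN3 (log2 difference -0.82, SE 0.32, adjusted p = 0.337). LARP4, an RNA-binding protein that protects the poly(A) tails of ribosomal protein mRNAs, had 9.59 and 14.1 FPKM against 16.7 and 43.7 FPKM (log2 difference 1.17, adjusted p = 0.403).

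Genes of other complexes, many of them short and abundant, are given by their medians. In 76 genes of the respiratory chain, with a median coding length of 423 bases, the replicate medians were 1.00 in shNC and 0.60 in shPTPRN3, and the group median was -0.15. In 78 mitochondrial ribosomal protein genes they were 0.72 and 0.28, and the group median was -0.28. In 31 proteasome genes the replicate medians were 0.50 and -0.27 and the group median was 0.39 (-0.06 and 0.79 within the numbers 1 and 2). In 6 ribosomal protein paralogues and fusions outside the naming rule, among them RPL22L1 (-1.16) and RPL36AL (-0.05), the median was -0.30. In each of these 4 lists 0 genes were called, against 0.421% of all genes. An unadjusted p under 0.05 was reached by 5 mitochondrial ribosomal protein genes and 1 proteasome gene (PSMC1, log2 difference -1.84), shares below the 13.4% of all genes. The groups separated with shPTPRN3 lower in 23 of the 78 mitochondrial ribosomal protein genes, against 23.1% of all genes. They did so in 5 of the 76 respiratory chain genes, 2 of the 31 proteasome genes and 1 of the 6 paralogues and fusions. With shPTPRN3 higher they separated in 1, 2, 7 and 0 genes of these lists in the same order, against 21.5% of all genes. The differences between lists were not tested.

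**Figure D5:**
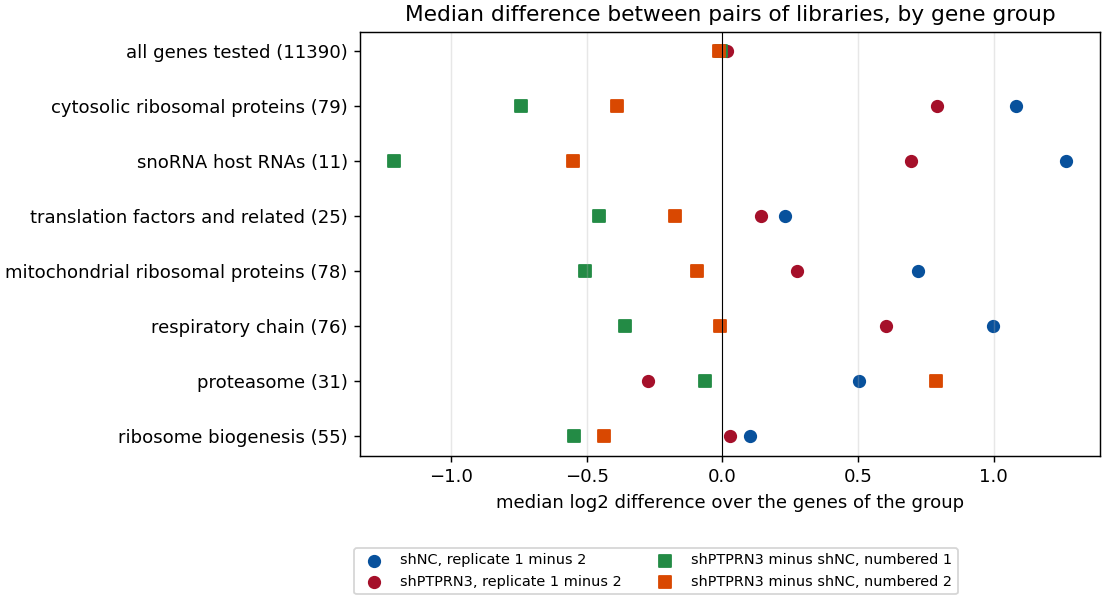
Median log2 difference over the tested genes of each group (number of genes in brackets) for the 2 replicate pairs (circles) and the 2 within-number comparisons of shPTPRN3 with shNC (squares). The ribosomal protein genes lie at 1.08 and 0.79 for the replicate pairs and at -0.74 and -0.39 for the comparisons. The respiratory chain has similar medians for the replicate pairs, and those of the ribosome biogenesis genes are near 0.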

How the data were processed

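RNA of U87 cells in 2 shNC and 2 shPTPRN3 libraries was sequenced from a kit for strand-specific mRNA libraries, according to the labels. The submitters' processing notes name FastQC 0.72, STAR 2.6.0b-1, Cufflinks 2.2.1.2 and hg38, without options. The authors deposited FPKM, with an interval and a status per gene row, per the file headers; the annotation and the strand setting are not known from the labels or headers. FPKM keep no fragment counts, depend on the assumed transcript length, and cannot separate overlapping antisense genes where the strand setting is unknown. 29 members overlap a small nucleolar RNA row and 22 another gene.

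Rows with status OK in all libraries (651 of 33646 were not) were summed per symbol and scaled by median ratios over 9988 genes (factors 1.04, 0.974, 1.05 and 0.942). Genes with a mean of at least 1, and PTPRN, were tested on log2(scaled FPKM + 1) with limma 3.58.1 (eBayes with trend, two-sided, Benjamini-Hochberg; residual df 2, prior df 4.94) in R 4.3.3; the fit was tested on simulated data. Python 3.11.15 (pandas 2.3.3, scipy 1.17.1, matplotlib 3.10.9) joined the tables, ran the exact permutation test and drew the figures. Positions count from 1.

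GENCODE 29 gave lengths and GC content, from the shortest principal transcript; a median over principal transcripts was replaced after its lengths were seen. Depth was estimated from intervals of single-exon genes of at least 1500 bases, a minimum set after a first estimate. Loess curves (span 0.3) removed length and GC trends. Members and gene lists were chosen with earlier results of these data known; length classes, the level of 50, the 2-fold count, the tract searches and the sequences shown were chosen after values were seen. Named genes were PTPRN, members by level, by size of difference, by lack of overlap and by role, and each list's extremes; further members (RPL4, RPL7, RPL36, RPL39, RPL41, RPS19, RPS29) were named after their values were seen. Alternatives covered scaling, pseudocount, filters, eBayes settings, a block for the replicate number, single libraries left out, trend removal and, added after seeing the data, primary chromosomes, genes listed at 0 and interval midpoints. Results of 2 members are not reported here by name; both stay in the counts and medians.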

Additional observations from a re-analysis of the deposited data

How the results depend on the processing

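The family's median difference stayed negative in every alternative, at -0.54 on FPKM as deposited, -0.44 on TPM, -0.43 with quantile normalization and -1.12 to -0.02 without single libraries. No member was called in any alternative except the replicate block. Without shNC replicate 1, 40 members were negative and 39 positive. Without shNC replicate 2, and without shPTPRN3 replicate 1, all 79 were negative. The share of all FPKM differed by -3.64 percentage points, and by -6.39 to -0.888 without single libraries. With the replicate block, 2163 genes (19.0%) and 11 of 79 members were called, a share of members below that of all genes, among them RPS2, RPL39L, RPL26, RPL12, RPL9, RPL36A, RPS26 and RPSA. The labels give no meaning to the numbers beyond a count, so the main fit did not treat them as pairs. Same-numbered libraries did deviate together over all genes (r = 0.52), and whether they are paired is not known. The number of genes called, 48, was 31 on FPKM as deposited, 23 with a pseudocount of 0.1, 0 with no filter (where 2163 had p under 0.05 before adjustment), 8 with the minimum mean raised to 5, 26 without the eBayes trend, 160 with robust eBayes, 168 with trends removed, 217 without genes listed at 0 and 60 to 197 without single libraries.

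Some named genes changed sign, among them NDUFA3, RPL36AL and SNHG6, which are outside the family. RPL36AL was at 0.043 on TPM and 0.078 with trends removed, RPS24 at 0.12 with quantile normalization and 0.011 with trends removed, RPLP0 at 0.043 with quantile normalization, RPL34 at 0.017 and RPS27L at -0.062 with trends removed. Without single libraries the log2 difference ranged from -0.15 to 1.06 for NDUFA3, -0.69 to 0.48 for RPL34, -0.62 to 0.52 for RPL36AL, -0.64 to 0.20 for RPLP0, -1.26 to 0.21 for RPLP1, -1.23 to 0.39 for RPLP2, -1.29 to 0.26 for RPS12, -1.09 to 0.50 for RPS21, -0.69 to 0.47 for RPS24, -1.16 to 0.15 for RPS27, -1.14 to 0.078 for RPS27A, -0.41 to 0.48 for RPS27L, -1.05 to 0.76 for RPS28 and -0.73 to 0.24 for SNHG6. The causes were not tested. PTPRN passed it in 6 of 19 alternatives, among them robust eBayes (adjusted p = 0.0362) and interval midpoints (adjusted p = 0.0486). A lone library left in a group is assumed to vary like the other group.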
